A study of Mus musculus with 112 samples.

Results

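The lipid-associated and inflammatory macrophage markers were defined as all probe sets annotated to the symbols Itgax, Lgals3, Cd68, Trem2, Gpnmb, Cd9, Atp6v0d2, Spp1 and Ctss. Of these 9 symbols 8 were matched, by 11 of the 32640 probe sets of the array, 3 of them for Trem2 and 2 for Atp6v0d2. Spp1 is not analysed here. The matched symbols are 8 of the 16643 genes named on the array.

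RNA came from male mice that carried the Pro12Ala knock-in variant of Pparg, the nuclear receptor that drives fat-cell formation, on both chromosomes (Ala/Ala), or from wild-type littermates (Pro/Pro). The variant is carried in every cell of the animal, so cells of every type differ between the genotypes. Feeding was with chow throughout or, once the animals were 8 weeks old, with a high-fat diet (HFD). Its length is labelled as both 15 weeks and 12 weeks, and the feed is not named in the same way throughout. Epididymal fat was measured in 10 chow-fed and 10 HFD-fed Pro/Pro mice and in 9 chow-fed and 8 HFD-fed Ala/Ala mice. Gastrocnemius muscle was measured in 8, 8, 10 and 9 mice of those groups, and liver in 10 of each, from 41 numbered mice in all.

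Fat tissue holds macrophages that live there in lean animals and others that enter as it expands. In obese fat a subset gathers around dying fat cells, takes up their lipid and turns on lysosomal genes together with the lipid receptor Trem2, and such cells are known as lipid-associated macrophages. The integrin Itgax (CD11c) is the usual marker of the inflammatory macrophages described in the same tissue. All values are log2 ratios of a mouse to a pool made from HFD-fed Pro/Pro mice for the same tissue, so 0 is the level of that pool and levels of different genes or tissues cannot be set against each other. In bulk tissue, fewer cells of a type and less RNA per cell cannot be told apart. Precision is set by how many arrays each group holds.

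The promoters of 7 of the 8 markers were in the RefSeq sequence table of GRCm38.p6 (250 bases before to 50 after the gene's start). They were searched because the transcripts varied together between mice, as described further on. Only the 4 that hold the AP-1-type motif are printed, and those of Cd9, Ctss and Lgals3, which lack it, are not. Varying together was not limited to genes with the motif. In fat, Cd68 had r = 0.927 with Lgals3 and 0.908 with Ctss, and 0.495 with Cd9. The AP-1-type motif TGANTCA, searched on both strands, was found in the promoters of Cd68, Gpnmb, Itgax and Trem2, which are 4 of the 7, while 7.81% of 32851 promoters hold it. Capitals mark that motif in the sequences, each printed 5′ to 3′ on the strand of its gene.
Trem2, chr17:48346151-48346450, plus strand: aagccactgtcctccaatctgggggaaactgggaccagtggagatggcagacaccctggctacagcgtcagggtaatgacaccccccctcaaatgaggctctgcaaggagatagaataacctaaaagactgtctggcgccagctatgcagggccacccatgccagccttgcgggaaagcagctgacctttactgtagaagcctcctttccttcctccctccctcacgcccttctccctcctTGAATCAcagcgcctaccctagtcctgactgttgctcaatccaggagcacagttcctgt
Gpnmb, chr6:49036268-49036567, plus strand: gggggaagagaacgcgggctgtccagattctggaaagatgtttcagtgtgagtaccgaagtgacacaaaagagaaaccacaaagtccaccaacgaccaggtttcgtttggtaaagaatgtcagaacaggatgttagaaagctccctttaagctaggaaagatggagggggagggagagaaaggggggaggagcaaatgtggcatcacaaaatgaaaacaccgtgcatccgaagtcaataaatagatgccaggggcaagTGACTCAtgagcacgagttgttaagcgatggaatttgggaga
Itgax, chr7:128129300-128129599, plus strand: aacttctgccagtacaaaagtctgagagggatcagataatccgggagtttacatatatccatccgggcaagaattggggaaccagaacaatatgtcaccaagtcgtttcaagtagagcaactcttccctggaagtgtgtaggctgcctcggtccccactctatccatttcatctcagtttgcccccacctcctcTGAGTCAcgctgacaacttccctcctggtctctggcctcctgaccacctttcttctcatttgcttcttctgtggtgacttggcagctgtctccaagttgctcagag
Cd68, chr11:69666121-69666420, minus strand: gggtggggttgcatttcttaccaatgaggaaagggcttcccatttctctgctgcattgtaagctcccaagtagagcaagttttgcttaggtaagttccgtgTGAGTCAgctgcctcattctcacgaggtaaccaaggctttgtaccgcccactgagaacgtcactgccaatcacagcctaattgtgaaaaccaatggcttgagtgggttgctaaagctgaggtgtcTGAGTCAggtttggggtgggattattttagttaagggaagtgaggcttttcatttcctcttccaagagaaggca
The motif began at base -9 of Trem2, 9 of Gpnmb, -56 of Itgax, and -149 and -24 of Cd68, counted from the gene's start at 1 with no base 0. The PU.1-type motif GAGGAA lay in 3 of the 7 promoters (Cd68, Ctss and Trem2), against 28.3% of all. TCATGTG lay in that of Ctss alone (1 of 7, against 3.77%), and CACGTG (7.15% of all) and the DR1 motif of nuclear receptors (0.0396% of all) in none. No motif overlapped another. A match is a description of letters in these windows and says nothing about binding.

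In fat, Itgax, Lgals3 and Atp6v0d2 RNA was higher on HFD in both genotypes. The call of Lgals3 held in every alternative fit, whereas that of Itgax in Pro/Pro and those of Atp6v0d2 within each genotype were lost in several, given with each gene, which left 1 of 8 called in Pro/Pro in 3 alternatives. The differences from chow were between 0.68 and 1.36 on the log2 scale, that is between 1.60-fold and 2.56-fold. Cd68, Trem2, Gpnmb, Ctss and Cd9 did not pass the test. With limma's test across all probe sets (Benjamini-Hochberg adjusted p under 0.05), 3 of 8 genes were higher and 0 lower on HFD in Pro/Pro mice, where 22.5% of all probe sets passed (9.36% higher). In Ala/Ala mice 3 of 8 were higher and 0 lower, against 26.9% of all probe sets (12.3% higher). Over both genotypes the count was again 3 of 8, against 38.7% (18.4% higher and 20.3% lower). The median difference over the 8 genes was 0.48, beside 0.02 over all probe sets. HFD changed a large part of the fat transcriptome, so the share of the markers called is to be read against these percentages.

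**Figure D1:**
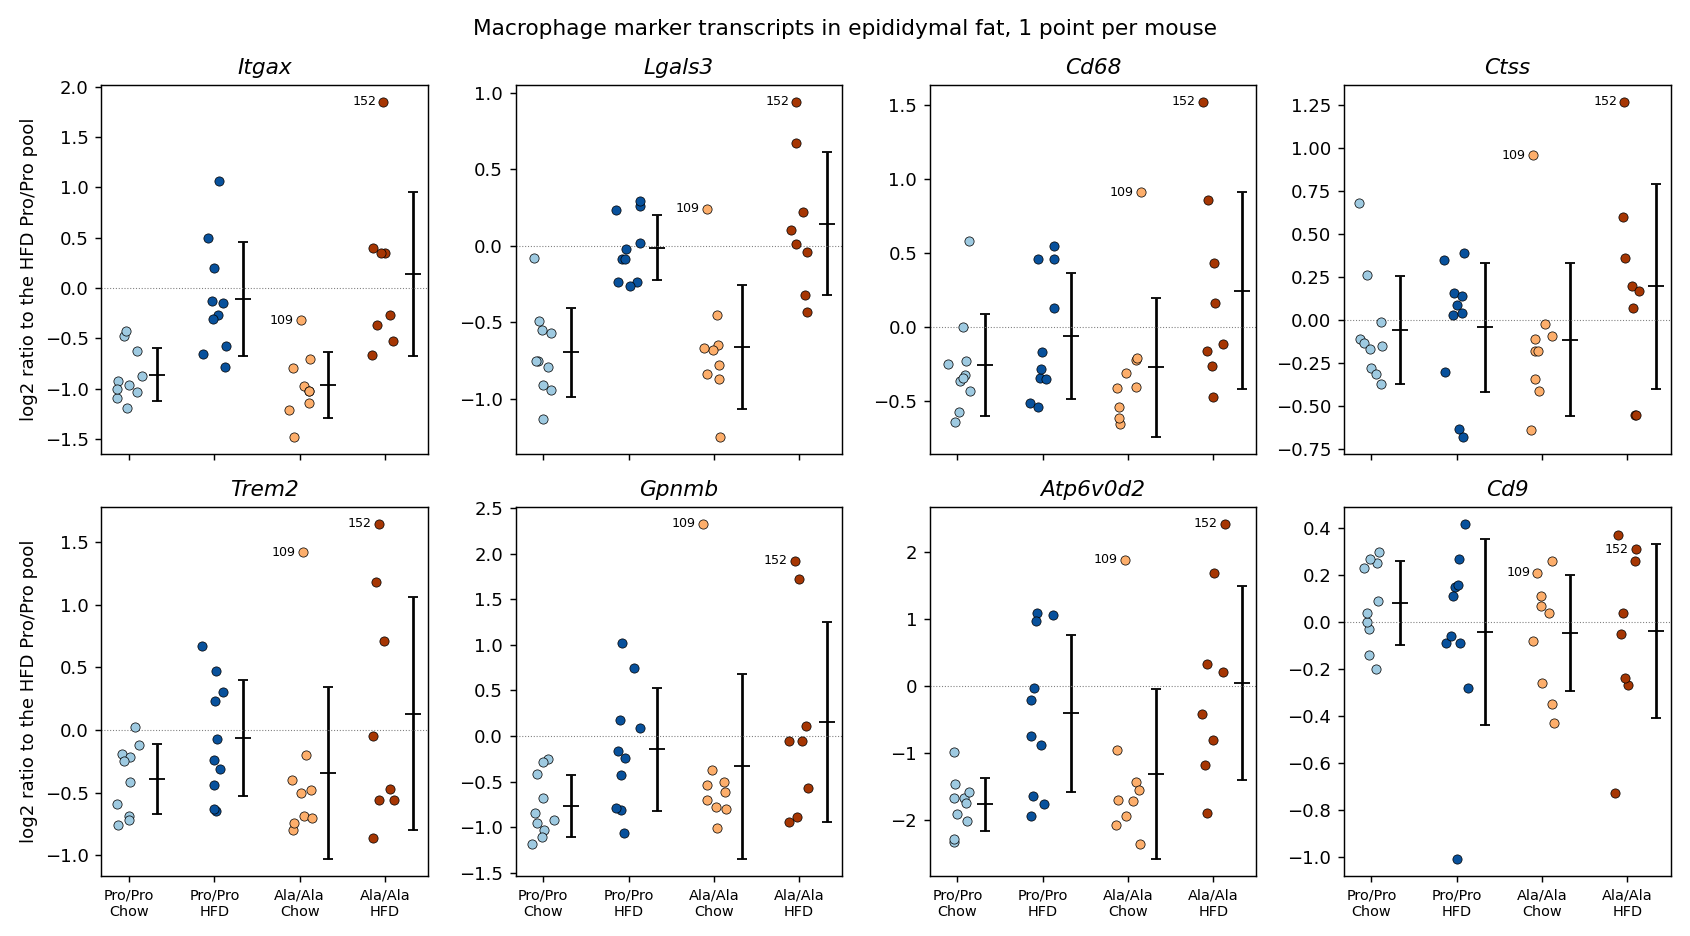
Log2 ratio to the HFD Pro/Pro pool (vertical axis) of 8 macrophage markers in epididymal fat, 1 point per mouse, by genotype and diet. Black marks give the group mean and SD, and Mouse109 and Mouse152 are labelled. For Trem2 and Atp6v0d2 the most variable probe set is drawn. Itgax was higher in all 10 HFD mice than the chow median in Pro/Pro and in all 8 in Ala/Ala.

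Itgax encodes the integrin alpha chain CD11c. In Pro/Pro fat the lowest, median and highest values were -1.19, -0.94 and -0.43 on chow and -0.78, -0.21 and 1.06 on HFD. In Ala/Ala fat they were -1.48, -1.02 and -0.32 on chow and -0.66, 0.04 and 1.85 on HFD. The groups overlapped, but 7 of 10 HFD mice in Pro/Pro and 5 of 8 in Ala/Ala lay above the highest chow mouse of their genotype. Itgax rose by 0.75 ± 0.22 (SE) in Pro/Pro (1.68-fold, adjusted p = 0.0115) and by 1.10 ± 0.24 in Ala/Ala (2.15-fold, adjusted p = 0.000666). The call in Pro/Pro was lost under quantile normalization (adjusted p = 0.0552), with the mouse number as a covariate (adjusted p = 0.0731) and without 10 arrays that carried other organs' transcripts (adjusted p = 0.0849).

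Lgals3 encodes galectin-3, a sugar-binding lectin that macrophages and some other cells secrete. Its lowest, median and highest values in Pro/Pro fat were -1.13, -0.75 and -0.08 on chow and -0.26, -0.05 and 0.29 on HFD. In Ala/Ala fat they were -1.25, -0.68 and 0.24 on chow and -0.43, 0.06 and 0.94 on HFD. Every HFD mouse lay above the chow median of its genotype, 10 of 10 and 8 of 8, and the HFD values in Pro/Pro were the tightest of the called markers (SD 0.21). Lgals3 rose by 0.68 ± 0.15 in Pro/Pro (1.60-fold, adjusted p = 0.000757) and by 0.80 ± 0.16 in Ala/Ala (1.75-fold, adjusted p = 0.000265). Over both genotypes it had the smallest adjusted p of the markers (1.08e-06).

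Atp6v0d2 encodes a subunit of the proton pump that acidifies lysosomes and is found in osteoclasts and some macrophages. Its more variable probe set (100010542) ran from -2.33 through a median of -1.71 to -0.99 in Pro/Pro chow fat and from -1.95 through -0.48 to 1.08 on HFD. In Ala/Ala fat it ran from -2.36 through -1.71 to 1.88 on chow and from -1.90 through -0.11 to 2.42 on HFD. HFD mice were spread over more than 3 log2 units, with some at the chow level and others far above it. It rose by 1.36 ± 0.48 in Pro/Pro (adjusted p = 0.0353) and by 1.36 ± 0.52 in Ala/Ala (adjusted p = 0.0478), 2.56-fold in each. The second probe set (100027654) gave 0.99 ± 0.41 (adjusted p = 0.0783) and 1.06 ± 0.44 (adjusted p = 0.0718), so that the call within a genotype rests on 1 probe set. For the first probe set the call in Ala/Ala was also lost after centring (adjusted p = 0.0507) and quantile normalization (adjusted p = 0.216), and that in Pro/Pro with the mouse number as a covariate (adjusted p = 0.0752) and under quantile normalization. Without the 10 arrays with other organs' transcripts the adjusted p was 0.112 in Pro/Pro and 0.0676 in Ala/Ala. Over both genotypes the differences were 1.36 ± 0.35 (adjusted p = 0.00212) and 1.03 ± 0.30 (adjusted p = 0.00629).

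Gpnmb encodes a transmembrane glycoprotein of lysosomes that is strongly expressed in lipid-laden macrophages. Its lowest, median and highest values in Pro/Pro fat were -1.19, -0.88 and -0.25 on chow and -1.06, -0.20 and 1.02 on HFD, and 6 of 10 HFD mice lay above the highest chow mouse. In Ala/Ala fat they were -1.01, -0.62 and 2.33 on chow and -0.94, -0.06 and 1.92 on HFD, and 0 of 8 did, because a single chow mouse had the highest value of all. The difference was 0.62 ± 0.35 in Pro/Pro (adjusted p = 0.217) and 0.49 ± 0.38 in Ala/Ala (adjusted p = 0.352), and over both genotypes 0.55 ± 0.26 (adjusted p = 0.0834).

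Trem2 encodes the lipid receptor that signals through the adaptor Tyrobp. Probe set 100012926 had medians of -0.34 on chow and -0.16 on HFD in Pro/Pro fat, with ranges of -0.76 to 0.02 and -0.65 to 0.67. In Ala/Ala fat the medians were -0.50 and -0.26, with ranges of -0.80 to 1.42 and -0.86 to 1.65. The difference over both genotypes was 0.40 ± 0.19 (adjusted p = 0.100), and 0.33 ± 0.15 for probe set 100019415 (adjusted p = 0.0887). Deviations of these probe sets from their group means went together over the 37 fat arrays (r = 0.949), whereas probe set 100004502 followed neither (r = -0.12 and -0.096) and stayed between -0.16 and 0.38 on all fat arrays. The annotation gives all 3 to Trem2, and the disagreement between them was not tested further.

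Cd68, a glycoprotein of macrophage lysosomes, and Ctss, the lysosomal protease cathepsin S, did not pass the test by diet. Cd68 was 0.20 ± 0.20 higher on HFD in Pro/Pro (adjusted p = 0.548) and 0.52 ± 0.22 in Ala/Ala (adjusted p = 0.0816), and 0.36 ± 0.15 over both (adjusted p = 0.0580). Ctss gave 0.02 ± 0.18 and 0.31 ± 0.20 (adjusted p = 0.958 and 0.264). Cd9, a tetraspanin of many cell types that marks lipid-associated macrophages among macrophages, gave -0.12 ± 0.13 and 0.01 ± 0.14 (adjusted p = 0.569 and 0.977), and the 95% interval over both genotypes ran from -0.26 to 0.14.

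**Figure D2:**
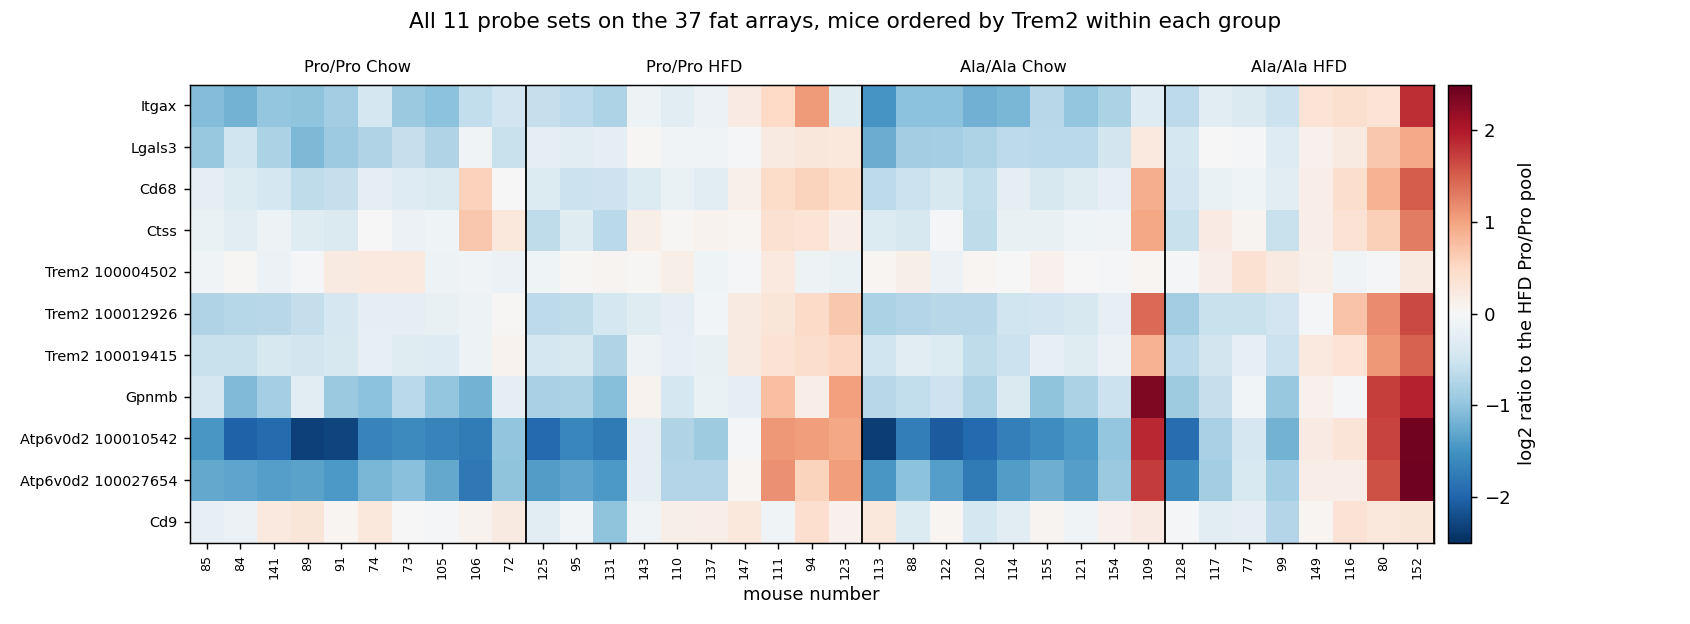
Log2 ratios to the HFD Pro/Pro pool (colour, red above and blue below it) of the 11 probe sets (rows) on the 37 fat arrays (columns, mouse numbers), ordered within each group by Trem2 probe set 100012926. Rows other than Trem2 100004502 and Cd9 darken towards the same mice, and Mouse109 stands apart from the other Ala/Ala chow mice, with Gpnmb at 2.33.

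Single mice weighed on these values. Mouse109, an Ala/Ala chow animal, had 2.33 for Gpnmb, 1.88 for Atp6v0d2, 1.42 for Trem2, 0.96 for Ctss and 0.91 for Cd68. The next highest values of that group were -0.37, -0.96, -0.20, -0.02 and -0.21. Itgax was -0.32 in Mouse109, inside the span of the HFD mice. Leptin (Lep) and the sterol carrier Npc2, which also separate the diets, were within the chow range in this mouse. Lep was at -1.47, and the 9 mice of the group ran from -2.33 to -0.72. The 8 Ala/Ala HFD mice ran from -0.46 to 0.38. Npc2 was at -0.87, near the top of its group (group -1.27 to -0.84, HFD -0.14 to 1.01). Other such transcripts are not given for this mouse, and whether it was otherwise like its group was not tested. On HFD, Mouse152 (Ala/Ala) had the highest Itgax (1.85), Trem2 (1.65), Cd68 (1.52), Ctss (1.27), Lgals3 (0.94) and Atp6v0d2 (2.42) of all fat arrays.

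Mouse109 was picked out by its own marker values, so leaving it out was bound to raise the differences of the markers that were high in it. Without Mouse109, 6 of 8 markers were called over both genotypes, against 36.9% of all probe sets. For that reason the count is not an independent comparison with all probe sets. Cd68 then differed by 0.43 ± 0.14 (adjusted p = 0.0131), Gpnmb by 0.72 ± 0.21 (adjusted p = 0.00635) and Trem2 by 0.51 ± 0.17 (adjusted p = 0.0164). Leaving out Mouse128 (Ala/Ala HFD) also gave 6 of 8, the highest count among the fits with a mouse left out. The share of all probe sets in that fit was not counted, so the count cannot be read as a result about the markers. Without Mouse152 the 3 markers called with all mice passed, and Cd68 gave 0.27 ± 0.14 (adjusted p = 0.121). Within Ala/Ala mice the call of Atp6v0d2 held in 4 of 17 fits that left out a single mouse, and the difference ran from 1.02 without Mouse152 to 1.76 without Mouse109. In Pro/Pro it held in 14 of 20, with 1.19 without Mouse111 as the lowest value.

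Of the 37 fat arrays 10 also carried transcripts of epididymis, testis or liver, and 8 of those 10 were from HFD mice. The epididymis and testis list had 6 of 15 measured genes higher on HFD, and the mean of that list ran from -1.88 to -1.40 on Pro/Pro chow, -1.77 to 0.91 on Pro/Pro HFD, -1.81 to -1.58 on Ala/Ala chow and -1.68 to -0.07 on Ala/Ala HFD. Of 10 hepatocyte genes 0 were higher and 1 was lower, and their mean reached above 0 in every group. The median of that mean was nevertheless higher on HFD, at -3.115 on chow and -1.755 on HFD in Pro/Pro. In Ala/Ala it was -3.05 on chow and -1.655 on HFD. Without these 10 arrays, 1 of 8 markers (Lgals3, 0.71 ± 0.18, adjusted p = 0.00472) was called in Pro/Pro, 2 of 8 in Ala/Ala and 3 of 8 over both genotypes, where 19.2%, 16.8% and 31.1% of all probe sets passed in the same fits. Itgax then gave 0.68 ± 0.27 in Pro/Pro (adjusted p = 0.0849) and 1.29 ± 0.28 in Ala/Ala (adjusted p = 0.00192). Whether these transcripts have a part in the marker differences was not tested, and the correlation of a marker's deviations with those of either list did not pass for any of the 8 (Pearson's r between -0.11 and 0.26 over 37 arrays, smallest adjusted p = 0.413 by r and 0.308 by Spearman's rho, in permutation tests of 64 relations). These values depended on few arrays: without the 2 farthest from the list's median, r with the epididymis and testis list ran from -0.328 for Lgals3 to 0.124 for Cd9, and r with the hepatocyte list reached 0.305 for Gpnmb.

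Genotype was the question of the study, and no marker passed the test for it in fat. Under limma 0 of 8 genes passed on chow (0.0153% of all probe sets passed), 0 of 8 on HFD (0.0705%) and 0 of 8 over both diets (0.0429%), and 0 had an unadjusted p under 0.05 in any of the 3. The methods' t-test also gave 0 at the study's false discovery rate. Ala/Ala minus Pro/Pro differences over both diets ran from -0.06 for Cd9 to 0.45 for Atp6v0d2. Without Mouse109 that of Atp6v0d2 was 0.25 and that of Gpnmb went from 0.37 to 0.20. For Lgals3 the 95% interval was -0.13 to 0.32 and for Itgax -0.26 to 0.40, whereas for Atp6v0d2 it was -0.26 to 1.16 and would not show a difference of 1. The diet difference was not found to depend on genotype either (0 of 8 markers and 0% of all probe sets, with 1622 probe sets and 0 markers at an unadjusted p under 0.05). The interval of that interaction was -0.31 to 1.02 for Itgax and -1.42 to 1.43 for Atp6v0d2, so large differences between the genotypes' responses were within the error. Pparg itself, in the same fat samples, differed by -0.04 ± 0.08 between genotypes (adjusted p = 0.948).

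**Figure D3:**
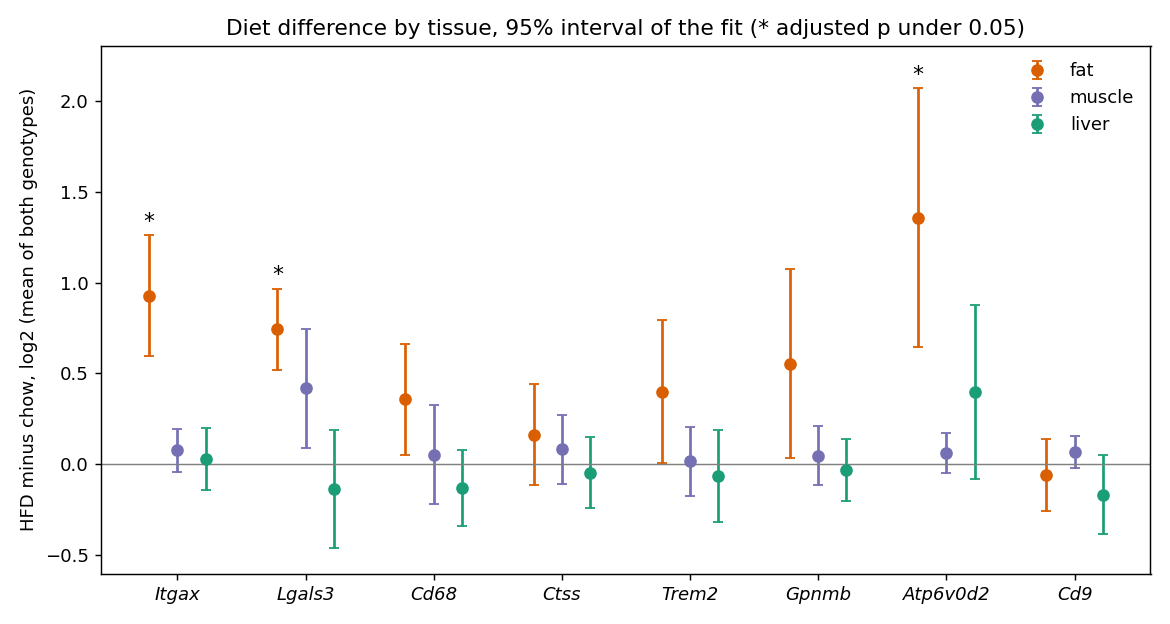
HFD minus chow on the log2 scale, averaged over both genotypes (vertical axis), for 8 markers in fat, muscle and liver. Points are fitted differences, bars their 95% intervals, and asterisks mark an adjusted p under 0.05. The called differences are those of Itgax, Lgals3 and Atp6v0d2 in fat.

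In muscle and liver no marker was called by diet. In muscle 0 of 8 passed in Pro/Pro (0.956% of all probe sets passed), in Ala/Ala (1.95%) and over both (5.37%), with 1 marker at an unadjusted p under 0.05 in each. The largest muscle difference was that of Lgals3 in Ala/Ala, where the lowest, median and highest values were -0.47, -0.23 and 0.62 on chow and -0.05, 0.41 and 1.35 on HFD (0.67 ± 0.22, adjusted p = 0.118). The mean of the adipocyte list in the same muscle samples was 0.05 on chow and 0.47 on HFD in Ala/Ala, and -0.01 and 0.00 in Pro/Pro, where Lgals3 differed by 0.17 (adjusted p = 0.838). The part of fat-cell transcripts in the Lgals3 values was not tested. In liver 0 of 8 passed in Pro/Pro, Ala/Ala and over both, as did 0% of all probe sets under limma (1892, 929 and 1572 at an unadjusted p under 0.05, of the markers 1, 0 and 1). Atp6v0d2 in liver gave 0.40 ± 0.24 (adjusted p = 0.988) and in Pro/Pro 9 of 10 HFD mice lay above the chow median. The Pro/Pro ranges were -1.33 to 0.92 on HFD and -1.11 to 1.42 on chow, with the chow maximum in Mouse141 and the next chow mouse at -0.27.

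The diet difference in fat was set against that in the other tissues in a fit over all 112 arrays. That fit gives each probe set a single error for all tissues, although several markers varied more between mice in fat than in liver or muscle. For Gpnmb the SE of the difference from liver (0.23) was below that of the diet difference in fat alone (0.26). The error was thus understated for Gpnmb and can be for other markers, so calls near 0.05 are to be read with that limit. It was larger in fat than in muscle for 2 of 8 genes, where 25.1% of all probe sets differed in either direction: Itgax by 0.85 ± 0.16 (adjusted p = 2.43e-05) and Atp6v0d2 by 1.29 ± 0.37 (adjusted p = 0.00523). It was larger in fat than in liver for 6 of 8 genes, counted by any of their probe sets, where 26.6% of all probe sets differed in either direction. The share of all probe sets larger in fat was not counted for either tissue. These were Itgax (0.90 ± 0.16, adjusted p = 3.53e-06), Lgals3 (0.88 ± 0.21, adjusted p = 0.000664), Atp6v0d2 (0.96 ± 0.36, adjusted p = 0.0368), Cd68 (0.49 ± 0.19, adjusted p = 0.0409), Gpnmb (0.59 ± 0.23, adjusted p = 0.0484) and Trem2 by probe set 100019415 (0.38 ± 0.15, adjusted p = 0.0486). The other Trem2 probe sets gave 0.46 (100012926, adjusted p = 0.0881) and -0.01 (100004502, adjusted p = 0.941), and with 1 probe set a gene the count was 5 of 8. Gpnmb and Trem2 were no longer called after each array was centred on its median (adjusted p = 0.0553 and 0.0582). Ctss and Cd9 were called in neither comparison, with differences from liver of 0.21 ± 0.16 and 0.11 ± 0.13.

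Under limma, genotype differences of the markers did not pass in muscle (0 of 8 over both diets, 0.0337% of all probe sets) or in liver (0 of 8, 0.0153%). At an unadjusted p under 0.05 there were 3 markers in muscle and 2 in liver, beside 2276 and 4832 of 32640 probe sets. Within a diet 0 of 8 passed in either tissue. On chow 1 marker in muscle and 4 in liver had an unadjusted p under 0.05, beside 1042 and 3165 probe sets. On HFD there were 4 and 1, beside 2684 and 2855. In liver, Itgax was lowest on Ala/Ala chow, with a range of -0.60 to -0.07 and a median of -0.34, against -0.27 to 0.85 and -0.05 on Pro/Pro chow. The Ala/Ala minus Pro/Pro difference over both diets was -0.28 ± 0.08 (adjusted p = 0.121). Trem2 by probe set 100019415 gave -0.23 ± 0.08 (adjusted p = 0.152). Both fell within the study's false discovery rate in the methods' t-test (adjusted p = 0.126 and 0.150). The share of all probe sets within that rate was not counted.

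The markers varied together between mice of the same group. Over the 37 fat arrays all 28 pairs of the 8 genes were positively correlated in their deviations from the group means. Pearson's r ran from 0.391 to 0.927 with a median of 0.813, and all 28 passed in a permutation test within groups by r and by Spearman's rho, at a Benjamini-Hochberg adjusted p under 0.05 over the 28 pairs. The 21 pairs without Cd9 had a median r of 0.859, and those with Cd9 reached 0.62. The closest were Cd68 with Lgals3 (r = 0.927, rho = 0.878) and Atp6v0d2 with Trem2 (r = 0.925, rho = 0.856), each with an adjusted p of 1.47e-05, which rests on the smallest p that 100000 permutations can give (1e-05). After the 2 arrays farthest from the median were left out, the median r was 0.744 and 27 pairs passed. The share of pairs of other genes that would pass on these arrays was not counted. Among 16642 genes ordered by r with Trem2, the other markers had ranks from 2 for Atp6v0d2 to 473 for Cd9.

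**Figure D4:**
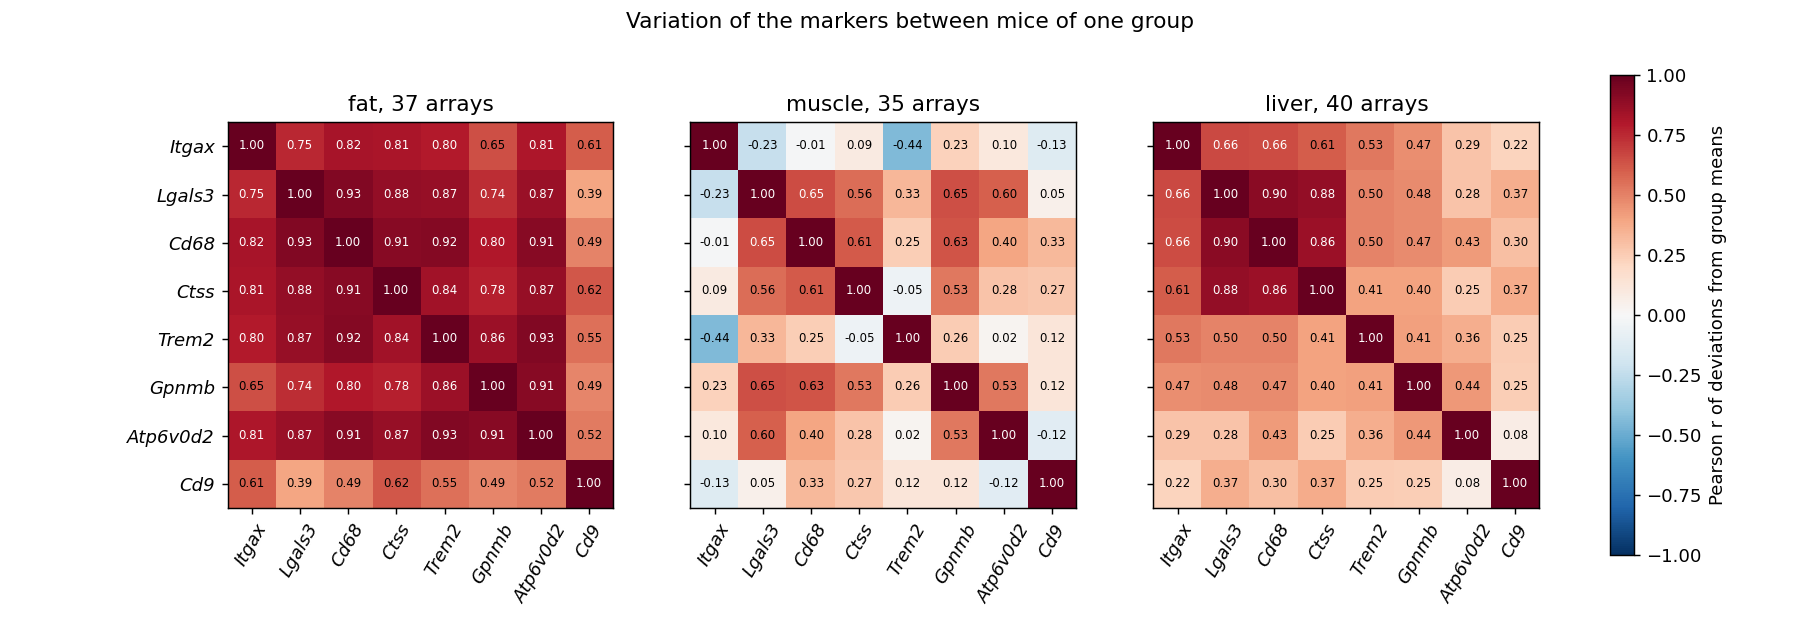
Pearson correlation of deviations from group means between the 8 markers (colour and printed value) in fat, muscle and liver. The median over the 28 pairs was 0.813 in fat, 0.252 in muscle and 0.419 in liver. Every tissue is drawn with the probe set most variable within the fat groups, and probe sets of the same gene agreed less outside fat.

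The shared variation was not equal in the 4 fat groups. The median r over the 28 pairs was 0.804 in Pro/Pro HFD and 0.92 in Ala/Ala HFD, where all pairs were positive, and 0.413 in Pro/Pro chow, where 20 of 28 were. In Ala/Ala chow it was 0.885 with Mouse109 and 0.44 without it. The difference between diets was not tested. In muscle the median was 0.252 and 22 of 28 pairs were positive, and in liver it was 0.419 with all 28 positive, led by Lgals3, Cd68 and Ctss (r of 0.858 to 0.899). Each gene's probe set was the one most variable within the fat groups. Probe sets of the same gene also agreed less outside fat. For Atp6v0d2 their r was 0.97 in fat, -0.186 in muscle and 0.799 in liver. For Trem2 100012926 and 100019415 it was 0.949, -0.122 and 0.377. The part of noise in the lower muscle and liver values was not tested. Set against its own deviation in liver (36 mice) or muscle (31 mice) of the same animal, a marker's deviation in fat passed a permutation test in 0 of 16 relations (r from -0.30 to 0.29, smallest adjusted p = 0.584).

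Beyond the markers, the genes whose deviations in fat were most like the mean of the 8 were, among 16643 genes on 37 arrays, Tyrobp (r = 0.958), Itgb2 (0.935), Adssl1 (0.933), Cyba (0.929), Lipa (0.927), Slc37a2 (0.926), Adam8 (0.926), Capg (0.925), Evl (0.921) and Myo1f (0.918). Tyrobp encodes the signalling adaptor of Trem2, Itgb2 the beta chain that pairs with Itgax, Cyba a subunit of the phagocyte NADPH oxidase, and Lipa the lysosomal acid lipase. These values are descriptive, as the genes were ranked by them. By diet over both genotypes 2 of these 10 were higher on HFD, near the 18.4% of all probe sets called higher, Adam8 by 0.60 ± 0.23 (adjusted p = 0.0358) and Evl by 0.26 ± 0.11 (adjusted p = 0.0458). Tyrobp gave 0.02 ± 0.11 (adjusted p = 0.894) and Itgb2 0.04 ± 0.13 (adjusted p = 0.836). Each marker is part of the mean it is set against, so its own rank is partly built in: Atp6v0d2, Cd68, Trem2 and Ctss had ranks 2 to 5, Lgals3 and Itgax 23 and 35, and Cd9 311 (r = 0.656).

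**Figure D5:**
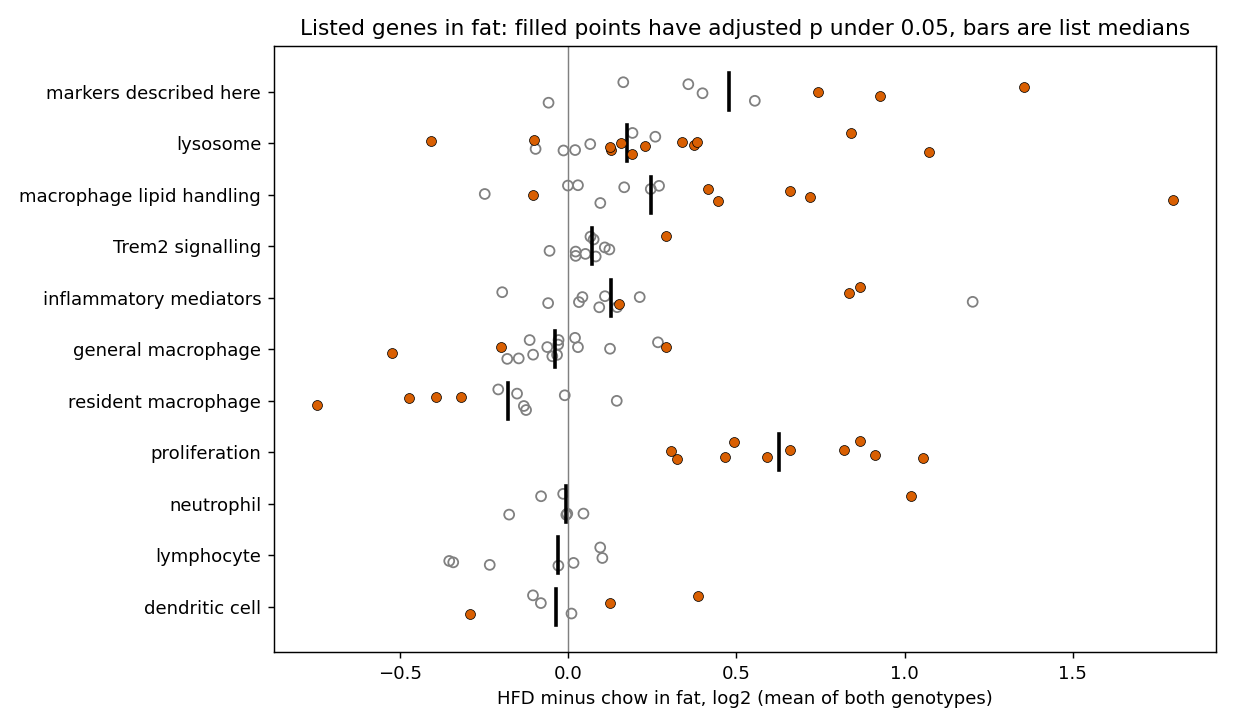
HFD minus chow in fat on the log2 scale, averaged over both genotypes (horizontal axis), for the genes of 11 lists (rows), 1 point per gene. Filled points have an adjusted p under 0.05 and bars are list medians. The 10 proliferation genes are all filled and to the right, and 4 of the 10 resident macrophage genes are filled and to the left. Of all probe sets 18.4% were called higher and 20.3% lower.

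By diet over both genotypes, 38.7% of all probe sets were called in fat, 18.4% higher and 20.3% lower. Few genes of macrophages in general passed the test there. Of 16 such genes 1 was higher (Ms4a7, 0.29 ± 0.10, adjusted p = 0.0143) and 2 were lower, the efferocytosis receptor Mertk (-0.52 ± 0.10, adjusted p = 0.000104) and Csf1r, the receptor of the macrophage growth factor CSF-1 (-0.20 ± 0.06, adjusted p = 0.00673), with a median over the list of -0.04. Without the 10 arrays that carried other organs' transcripts the counts were 0 higher and 1 lower. Of 10 genes of resident macrophages 4 were lower and 0 higher (median -0.18), namely Timd4 (-0.75 ± 0.12), Cd209f (-0.47 ± 0.12), Lyve1 (-0.39 ± 0.08) and the mannose receptor Mrc1 (-0.32 ± 0.08, adjusted p = 0.00235, the largest of the 4). Among mice of a group all 8 markers nevertheless went with the mean of the general macrophage list (r from 0.489 for Cd9 to 0.917 for Ctss, all with an adjusted p under 0.05 over 64 relations). The share of all genes that did so was not counted. Mouse106 (Pro/Pro chow) had the highest mean of that list in its group (0.70), with Cd68 at 0.58 and Ctss at 0.68 but Gpnmb at -1.19 and Atp6v0d2 at -1.75, while Mouse109 had 0.45 and Mouse152 had 0.60.

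Of 18 genes of lysosomes 10 were higher and 2, Lamp1 and Lamp2, lower (median 0.17), where 18.4% of all probe sets were called higher and 20.3% lower. The higher ones included Npc2, which exports cholesterol from lysosomes (1.07 ± 0.09, adjusted p = 1.57e-11), the proton pump subunit Atp6v0a1 (0.84 ± 0.12, adjusted p = 4.27e-07) and the proteases Ctsb (0.38 ± 0.06) and Ctsd (0.34 ± 0.05). Of 13 genes of macrophage lipid handling 5 were higher and 1 lower (median 0.25), led by the elastase Mmp12 (1.80 ± 0.33, adjusted p = 3.96e-05), the cholesterol exporter Abcg1 (0.72 ± 0.06) and the lipid droplet protein Plin2 (0.66 ± 0.07), several of which fat cells express too. Of 10 genes of Trem2 signalling, the adaptor Tyrobp among them, 1 was higher and 0 lower, and that gene was again Ms4a7, which stands in both lists.

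Among 12 inflammatory mediators 3 were higher and 0 lower, a share near the 18.4% of all probe sets called higher. The 3 were the chemokine Ccl2 (0.84 ± 0.21, adjusted p = 0.00194), Il1rn, which encodes the antagonist of interleukin-1 (0.87 ± 0.29, adjusted p = 0.0173), and Il12b (0.15 ± 0.05, adjusted p = 0.0146), and this count was 1 after quantile normalization. All 10 proliferation genes were higher (median 0.63), such as Birc5 (1.06 ± 0.15) and the cell-cycle kinase Cdk1 (0.87 ± 0.08, adjusted p = 2.82e-11), and all 10 were with the 10 arrays carrying other organs' transcripts left out. Among mice of a group, 7 of 8 markers went with the mean of the proliferation list (r from 0.565 for Gpnmb to 0.763 for Itgax), and Cd9 passed by rank but not by r in a permutation test (r = 0.391, adjusted p = 0.0604, rho = 0.412, adjusted p = 0.0412). Here too the share of all genes was not counted.

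The counts for markers of other cells are to be read against the 38.7% of all probe sets called in this comparison, and several lay at or below it. Of neutrophil genes 1 of 7 was higher (S100a8, 1.02 ± 0.21) and of 7 lymphocyte genes 0 passed, or 3, all lower, without the 10 arrays that carried other organs' transcripts. Of 6 dendritic cell genes 2 were higher (Ccr7 by 0.39 ± 0.08 and Flt3 by 0.13 ± 0.05) and 1 lower (Zbtb46 by -0.29 ± 0.08), and Itgax is a marker of these cells also. Mesothelial genes were lower in 6 of 9 (median -0.59), with Wt1 at -0.81 ± 0.08. Of 8 fibroblast genes 3 were higher and 2 lower, of 8 endothelial genes 1 was higher and 3 lower, of 8 Kupffer cell genes 1 was higher and 3 lower, and of 11 adipocyte genes 1 (Lep) was higher and 2 lower. The markers ran against the adipocyte list mean between mice of a group (r from -0.586 for Cd9 to -0.188 for Lgals3, 7 of 8 with an adjusted p under 0.05), and without the 2 arrays farthest from the list's median r ran from -0.649 for Ctss to -0.496 for Lgals3. How many of all genes did so was not counted. The part of any of these cell types in the marker differences was not tested. By genotype, 0 genes of these lists passed in fat.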

How the data were processed

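RNA from 3 tissues was hybridised to 112 2-colour arrays, each a single mouse against a pool, computed from HFD-fed Pro/Pro mice for the same tissue, per the labels. The authors deposited log10 ratios of 32640 probe sets, with a floor of -2; how they were made from scanner signals is not given in the sources used here. Ratios were used in the deposited direction, higher meaning more RNA in the mouse than in the pool, and put on the log2 scale. In that direction the pool's arrays averaged to the pool within 0.001 (log10) for 99.9969% of probe sets in fat and 100% in liver. In muscle it was 10.5392% over the 8 pool arrays at hand, and over the 500 most variable probe sets the median offset was 0.0224 as deposited and 0.0516 with the sign turned (log10), so the direction there was taken to be the same. Some arrays correlated below 0 (lowest r -0.469 in fat, -0.387 in liver, -0.204 in muscle). Values at the floor numbered 62 in fat, 2 in muscle and 0 in liver. No intensities were used, so background and tissue markers' levels could not be examined.

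Groups came from the sample titles. limma 3.58.1 in R 4.3.3 fitted a mean per group within each tissue over all probe sets, and called a Benjamini-Hochberg adjusted p under 0.05. The diet difference was compared between tissues in a fit of the 12 groups together, with a single error per probe set for all tissues. Arrays of the same mouse are paired across tissues by its number; their consensus correlation was -0.00688. Mice are separate animals. Deviations from group means were correlated in Python 3.11.15 (NumPy 2.4.6, pandas 2.3.3) with 100000 permutations within groups. The limma step was tested on simulated data. Probe sets were named through the platform annotation: 25508 had a symbol and 7132 none.

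The members and lists were chosen with earlier results of these data known. Named were all probe sets of the markers, up to 4 genes of a list with the smallest p in the fat diet comparison over both genotypes, the 10 genes most like the markers, and Pparg. Arrays with other organs' transcripts were those with an epididymis and testis list mean over -1 or a hepatocyte list mean over 0, a choice made after seeing the data. Alternatives were centring, quantile normalization, other probe set rules, array weights, the mouse number as a covariate, each mouse left out, and the methods' t-test at a false discovery rate of 0.20.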

Additional observations from a re-analysis of the deposited data

Results flagged for a closer look

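Of 132 groups of arrays (11 probe sets in 12 groups) 17 held a mouse whose gap to the nearest other mouse was large for the group's range; chance gives about 1 in 20. Of the 17, 7 were Mouse109 among the Ala/Ala chow fat samples, with Gpnmb at 2.33, Atp6v0d2 at 1.88 and 1.75, Trem2 at 1.42 and 0.87, Ctss at 0.96 and Cd68 at 0.91; these come from a single RNA sample. In fat, Mouse152 had Itgax at 1.85 (Ala/Ala HFD), Mouse106 had Cd68 at 0.58 (Pro/Pro chow) and Mouse131 had Cd9 at -1.01 (Pro/Pro HFD). In liver, Mouse141 (Pro/Pro chow) had Atp6v0d2 at 1.42 and 0.51 and Gpnmb at 1.36, Mouse123 (Pro/Pro HFD) had Trem2 at 0.87 and Mouse80 (Ala/Ala HFD) had Gpnmb at 0.38. In muscle, Mouse84 (Pro/Pro chow) had Cd9 at -0.35 and Mouse94 (Pro/Pro HFD) had Ctss at -0.69.

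The diet difference was itself tested between tissues. It was larger in fat than in muscle for Atp6v0d2 (by 1.29 and 0.98 on the log2 scale) and Itgax (0.85). It was larger in fat than in liver for Itgax (0.90), Lgals3 (0.88), Atp6v0d2 (0.96 and 0.77), Gpnmb (0.59), Cd68 (0.49) and Trem2 by probe set 100019415 (0.38). Of all probe sets 25.1% differed from muscle and 26.6% from liver, in either direction. Gpnmb and Trem2 lost the limma call against liver after centring (adjusted p = 0.0553 and 0.0582), and the other Trem2 probe sets did not pass. The single error for all tissues limits the calls near 0.05.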

How the results depend on the processing

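Of 25 counts of called markers, 21 stayed within 1.5 times their value under every alternative run. The count by diet in Ala/Ala fat was 3 and ran from 2 to 5 with a mouse left out (5 without Mouse109). In Pro/Pro fat it was 3, with 2 to 3 on leaving out a mouse, and 1 under quantile normalization, with the mouse number as a covariate and without the 10 arrays with other organs' transcripts. Over both genotypes it was 3, with 5 under array weights and 3 to 6 on leaving out a mouse (6 without Mouse109 or Mouse128). Under array weights and without Mouse128 the share of all probe sets called was not counted. For the 5 in Ala/Ala it is not given here. A general gain in calls cannot be told there from one of the markers. Mouse109 was also picked out by its own marker values, so counts without it are no independent check. In liver the count by genotype over both diets was 0, and 2 by the methods' t-test at a false discovery rate of 0.20, where the share of all probe sets was not counted. The cause of these shifts was not tested. With the mouse number as a replicate block the fat against muscle count stayed at 2 and the fat against liver count at 6, and the block changed no other call. Atp6v0d2 in Ala/Ala fat lost its call after centring (adjusted p = 0.0507) and quantile normalization (adjusted p = 0.216), and Itgax in Pro/Pro under quantile normalization (adjusted p = 0.0552). Of 253 results of single probe sets, 20 were called and 0 reversed; 67 of the 225 never called turned direction in some alternative. Within a genotype, 8 to 10 mice a group set the precision, and signal over background is unknown.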
